A study of Mus musculus with 24 samples.

Results

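The de novo pyrimidine and CTP synthesis enzymes described here are the 8 genes Cad, Dhodh, Umps, Cmpk1, Nme1, Nme2, Ctps and Ctps2, taken by symbol from the 55414 genes of the count table. All 8 were found and all 8 passed the filter on low counts, which kept 16029 genes. RNA was measured in 24 D4M tumours, which are grown from a mouse melanoma line, in C57BL/6 WT mice. Of the 4 groups of 6 tumours, BRQ+PD-1 received brequinar (BRQ) and anti-PD1 antibody, BRQ+IgG2a received brequinar and IgG2a antibody, PD-1 received anti-PD1 antibody, and IgG2a received IgG2a antibody alone. Every agent was injected intraperitoneally, so all 24 animals received an antibody; dose, schedule, sex and age were not part of the labels read here. The stated aim of the series was to follow the tumour environment under the pair of treatments.

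Cells make pyrimidine nucleotides from glutamine, bicarbonate and aspartate. The trifunctional protein encoded by Cad carries out the opening reactions, Dhodh in the inner mitochondrial membrane oxidises dihydroorotate to orotate and hands the electrons to ubiquinone, and Umps turns orotate into UMP. The kinase Cmpk1 makes UDP, the nucleoside diphosphate kinases Nme1 and Nme2 make UTP, and the CTP synthetases encoded by Ctps and Ctps2 aminate UTP to CTP with glutamine as the nitrogen donor. Brequinar blocks the Dhodh enzyme, so the transcript levels below are not a readout of flux through the pathway.

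Library totals ran from 19106205 to 34282319 counts. Levels are given as normalised CPM, which are counts scaled to a common library total and corrected by each library's TMM composition factor. In 4 libraries, IgG2a replicates 2 and 3, PD-1 replicate 6 and BRQ+IgG2a replicate 4, the skeletal muscle actin gene Acta1 reached 4171 to 14070 CPM of the library total, against at most 439 CPM in the other 20. Those 4 are called muscle-rich below. The summed level of the 8 skeletal muscle markers ran from 1.004 to 614 CPM in BRQ+PD-1, 2.49 to 12130 CPM in BRQ+IgG2a, 3.02 to 9210 CPM in PD-1 and 4.34 to 39140 CPM in IgG2a. Of the pigment cell markers, Dct and Tyr were at 0 counts in all 24 libraries and Mlana at 0 in 19, while Mitf stood at 11.6 to 48.2 CPM. These are whole tumours, in which fewer cells of a type and less RNA per cell cannot be told apart.

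Nme1 carried the only call among the 8 enzymes in the edgeR test that serves throughout, and its annotated promoters are printed for that reason. RefSeq on the GRCm38.p6 build lists a pair of Nme1 start sites on the minus strand of chromosome 11. Each sequence runs 5′ to 3′ from 250 bases before to 50 bases after a start site, and capitals mark the E-box CACGTG, the motif bound by Myc, Max, Usf and related factors. The upstream window is chr11:93968223-93968522 and the downstream window is chr11:93967976-93968275.
Nme1 upstream start site: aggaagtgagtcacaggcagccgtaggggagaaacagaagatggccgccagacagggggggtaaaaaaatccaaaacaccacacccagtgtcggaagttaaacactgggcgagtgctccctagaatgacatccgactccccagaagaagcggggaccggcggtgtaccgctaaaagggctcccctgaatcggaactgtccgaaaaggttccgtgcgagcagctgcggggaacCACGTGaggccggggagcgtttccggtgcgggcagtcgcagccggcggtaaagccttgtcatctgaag
Nme1 downstream start site: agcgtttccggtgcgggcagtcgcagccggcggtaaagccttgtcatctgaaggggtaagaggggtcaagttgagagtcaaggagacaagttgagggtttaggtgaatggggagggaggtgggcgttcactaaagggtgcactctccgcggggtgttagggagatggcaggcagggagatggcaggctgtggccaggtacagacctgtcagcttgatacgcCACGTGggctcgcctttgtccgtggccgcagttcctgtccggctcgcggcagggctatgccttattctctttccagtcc
Each window holds an E-box of its own: the one in the upstream window begins at -18 from the upstream start site, and the one in the downstream window at -29 from the downstream start site. Promoters were matched in 12 windows for 7 of the 8 genes, all but Dhodh, and Nme1 was the only 1 of the 7 with an E-box in a window. No other motif was searched. The motif reads the same on both strands and was found in 7.15% of 32851 promoter windows of this length. By gene, 8.09% of 27025 had it in a window. A match describes the letters of the window and is not a measured binding site, and no match in a window says nothing of a factor.

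The levels of the 8 genes spanned a wide range. Per kilobase of exon and averaged over 24 tumours, Cmpk1 was highest at 29.2 ± 3.06 CPM per kb and Ctps followed at 24.6 ± 3.74 CPM per kb (SD, n = 24 each). Umps at 14.0 ± 1.99, Cad at 12.6 ± 1.69 and Nme1 at 11.5 ± 2.52 CPM per kb lay within their spreads of each other. Ctps2 stood at 9.20 ± 1.22 CPM per kb and Dhodh at 2.04 ± 0.25 CPM per kb, so the transcript of the brequinar target was a low one among the 8. Nme2 was lowest at 1.25 ± 0.47 CPM per kb, a value that rests on 20 to 64 counts per library. Of its 1171 exon bases 573 are shared with the readthrough gene Gm20390, as are 418 of 3342 for Nme1, and Gm20390 had 0 counts. Reads in shared bases may not have been counted, so the places of Nme2 and Nme1 in this order are uncertain. The divisor also counts every annotated exon base of a gene, 3342 for Nme1, whose coding sequence has 459. Transcripts with fewer bases would give higher values per kb, so the order holds for this divisor only. Within groups, the coefficient of variation was lowest for Cmpk1 at 10.4%, then 11.8% for Ctps2, 12.5% for Dhodh, 13.1% for Cad, 13.7% for Ctps, 14.5% for Umps and 17.9% for Nme1. These lie below the median tested gene at 19.2%, and Nme2 lay above it at 35.5%.

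**Figure D1:**
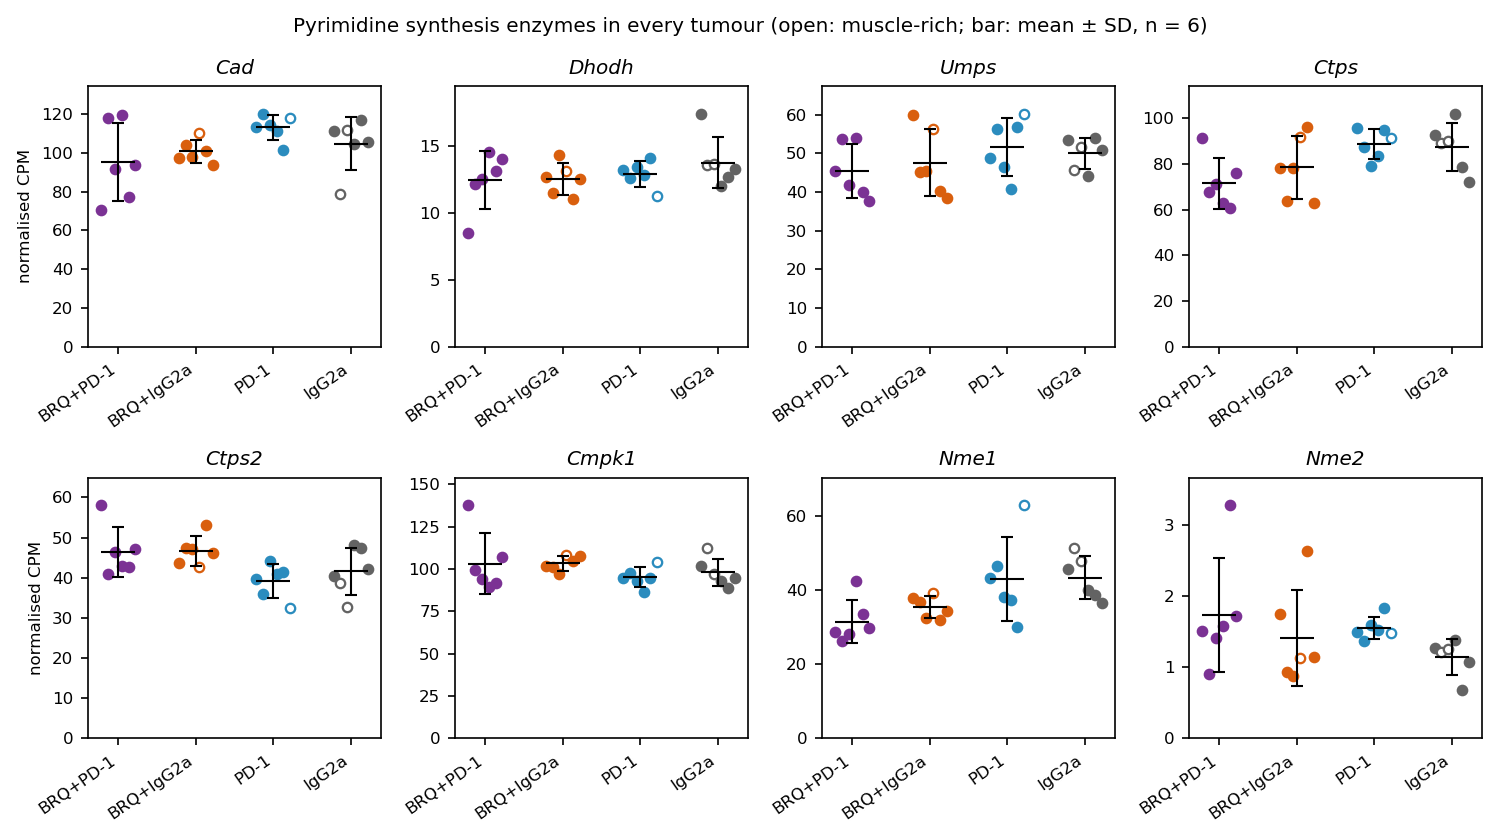
Normalised CPM (y axis, linear from 0) of each enzyme gene in every tumour, by group on the x axis. Points are tumours, open points are the 4 muscle-rich libraries, and bars are the mean ± SD of 6 tumours. Nme1 averaged 31.4 CPM in BRQ+PD-1 and 35.4 CPM in BRQ+IgG2a, against 43.0 CPM in PD-1 and 43.3 CPM in IgG2a. For Ctps 6 of 12 brequinar tumours lay below every tumour without brequinar, and for Ctps2 all 12 lay above the mean of those.

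The enzymes of UMP synthesis did not pass the edgeR test in any comparison. Limma voom called Cad for brequinar over both antibodies and for BRQ+PD-1 against PD-1. Over all 16029 genes limma voom called 3797 and 2194 in those comparisons, against 2001 and 808 with edgeR. Cad had a lowest, median and highest level of 70.7, 92.7 and 119.6 CPM in BRQ+PD-1 and of 94.0, 99.3 and 110.1 CPM in BRQ+IgG2a. The same 3 values were 101, 114 and 120.1 CPM in PD-1 and 78.5, 108 and 117 CPM in IgG2a. The BRQ+PD-1 tumours were the most spread, with 4 of 6 below every PD-1 tumour and 2 of 6 above the PD-1 mean. For brequinar over both antibodies, the mean of the 2 brequinar groups minus the mean of the 2 groups without it, Cad had a log2 fold change of -0.15 ± 0.08 (SE; adjusted p 0.200).

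Dhodh, which encodes the brequinar target, had a lowest, median and highest level of 8.49, 12.8 and 14.5 CPM in BRQ+PD-1 and of 11.01, 12.6 and 14.3 CPM in BRQ+IgG2a. PD-1 tumours had 11.3, 13.0 and 14.1 CPM, and IgG2a tumours had 12.01, 13.4 and 17.4 CPM. The 4 groups overlapped. The log2 fold change for brequinar over both antibodies was -0.09 ± 0.08 (SE; adjusted p 0.472), and the 95% interval of the fold ran from 0.837 to 1.05.

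Umps had a lowest, median and highest level of 37.7, 43.6 and 54.0 CPM in BRQ+PD-1 and of 38.4, 45.3 and 59.9 CPM in BRQ+IgG2a. The same values were 40.8, 52.6 and 60.2 CPM in PD-1 and 44.1, 51.3 and 53.8 CPM in IgG2a. Its log2 fold change for brequinar over both antibodies was -0.13 ± 0.08 (SE; adjusted p 0.330), with 4 of 12 brequinar tumours below every tumour without brequinar. Umps overlaps the antisense gene Gm15829 over 213 exon bases. That gene had at most 4 counts in a library, and how reads in the shared bases were counted was not tested.

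Of the kinases that carry UMP to UTP, Nme1 fell with brequinar and Cmpk1 did not pass the test. Cmpk1, the UMP and CMP kinase, had a lowest, median and highest level of 89.1, 96.7 and 137.5 CPM in BRQ+PD-1 and of 96.8, 103 and 108 CPM in BRQ+IgG2a. The same values were 86.4, 94.7 and 104 CPM in PD-1 and 89.0, 95.8 and 112 CPM in IgG2a. The groups overlapped, and the log2 fold change for brequinar over both antibodies was 0.10 ± 0.06 (SE; adjusted p 0.297).

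Nme1 had a lowest, median and highest level of 26.2, 29.2 and 42.3 CPM in BRQ+PD-1 and of 32.0, 35.5 and 39.2 CPM in BRQ+IgG2a. The same values were 29.9, 40.7 and 62.8 CPM in PD-1 and 36.6, 42.9 and 51.3 CPM in IgG2a. None of the 12 brequinar tumours reached the mean of the tumours without brequinar, and 4 of them lay below every one of those. For brequinar over both antibodies the log2 fold change was -0.37 ± 0.10 (SE; adjusted p 0.0161), a fold of 0.773 with a 95% interval of 0.671 to 0.890. In this comparison 2001 of 16029 genes were called, which is 12.5%, so 1 call among 8 enzymes is a share no different from the background of all genes tested. The median log2 fold change of the 8 was -0.11, beside 0.01 over all genes tested.

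Nme1 was high in the muscle-rich libraries. Nme1 stood at 39.2 CPM in the muscle-rich brequinar library, the highest of its group, and at 47.8, 51.3 and 62.8 CPM in the 3 muscle-rich libraries without brequinar. In the other libraries it ran from 26.2 to 42.3 CPM with a median of 32.5 in 11 brequinar tumours, and from 29.9 to 46.5 CPM with a median of 38.6 in 9 tumours without brequinar. Without the 4 muscle-rich libraries the log2 fold change was -0.27 ± 0.09 (SE; adjusted p 0.0589) and the call was lost. The 7 tested muscle markers had a median log2 fold change of -2.87 for brequinar over both antibodies, and none passed the test. Of 6 T cell markers 4 rose (Cd3e, Cd3g, Cd4 and Cd8a), and the summed level of the 6 ran from 14.2 to 67.9 CPM in BRQ+PD-1, 17.6 to 114 CPM in BRQ+IgG2a, 15.7 to 46.6 CPM in PD-1 and 7.76 to 34.3 CPM in IgG2a. Of 5 macrophage markers 2 rose (Adgre1 and Cd68), with summed levels of 1001 to 1692 CPM in BRQ+PD-1, 691.9 to 2040 CPM in BRQ+IgG2a, 879 to 1400 CPM in PD-1 and 762 to 1405 CPM in IgG2a. These marker counts are from all 24 libraries. Without the muscle-rich libraries all 6 T cell markers were called higher, as were 3 of 5 macrophage markers (Adgre1, Cd68 and C1qb). Over all genes 1642 of 16179 were called there. The part of muscle, T cells and macrophages in the Nme1 result was not tested.

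Nme2, the other nucleoside diphosphate kinase, had a lowest, median and highest level of 0.907, 1.54 and 3.28 CPM in BRQ+PD-1 and of 0.881, 1.14 and 2.64 CPM in BRQ+IgG2a. The same values were 1.37, 1.51 and 1.83 CPM in PD-1 and 0.678, 1.23 and 1.39 CPM in IgG2a. Its log2 fold change for brequinar over both antibodies was 0.23 ± 0.20 (SE; adjusted p 0.477). The low Nme2 level stands beside an overlap of gene models: in the GENCODE M21 annotation (GRCm38), Nme2 lies at chromosome 11 from 93949814 to 93956259, next to Nme1 from 93956979 to 93968521, and the readthrough gene Gm20390 spans exons of both. All 456 coding bases of Nme2 and 573 of its 1171 exon bases lie in exons of Gm20390, against 341 of 511 coding bases and 418 of 3342 exon bases of Nme1. Gm20390 had 0 counts in every library, and of the 139 protein-coding genes whose exons are wholly shared with another gene on the same strand, 102 had 0 counts in every library, 73.4%, against 21.8% of the 15342 with no shared exon base. Nme2 values are therefore uncertain, and Nme1 values may be affected through its shared bases. How reads in the shared exons were counted was not tested. The coding sequences of Nme1 and Nme2 are identical at 80.0% of 459 aligned bases, with a longest identical run of 29 bases. With the counts of Nme1, Nme2 and Gm20390 summed, the log2 fold change for brequinar over both antibodies was -0.35 ± 0.10 (SE, adjusted p 0.0198). Nme1 makes up most of that sum, with a mean of 990.2 counts per library against 36.5 for Nme2 and 0 for Gm20390. The sum therefore had to stay close to the Nme1 value, and it cannot recover reads left uncounted in shared exons.

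The CTP synthetase genes had log2 fold changes of opposite sign for brequinar over both antibodies. Neither passed the edgeR test, and both were called there by DESeq2 and by limma voom. Over all 16029 genes those tools called 2651 and 3797, against 2001 with edgeR. Ctps had a lowest, median and highest level of 60.6, 69.4 and 91.3 CPM in BRQ+PD-1 and of 63.0, 78.3 and 96.2 CPM in BRQ+IgG2a. The same values were 79.2, 89.6 and 96.0 CPM in PD-1 and 72.1, 89.6 and 102 CPM in IgG2a. Of 12 brequinar tumours, 6 lay below every tumour without brequinar, and the log2 fold change for brequinar over both antibodies was -0.23 ± 0.08 (SE; adjusted p 0.0534).

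Ctps2 had a lowest, median and highest level of 41.0, 44.6 and 58.0 CPM in BRQ+PD-1 and of 42.6, 46.7 and 53.0 CPM in BRQ+IgG2a. The same values were 32.3, 40.3 and 44.2 CPM in PD-1 and 32.6, 41.3 and 48.2 CPM in IgG2a. All 12 brequinar tumours lay above the mean of the tumours without brequinar, 2 of them above every one of those, and the log2 fold change was 0.21 ± 0.07 (SE; adjusted p 0.0527). Without the 4 muscle-rich libraries the log2 fold change of Ctps2 was 0.13 ± 0.06 (SE; adjusted p 0.200), and that of Ctps was -0.25 ± 0.09 (SE; adjusted p 0.0727). The Ctps2 level was 42.6 CPM in the muscle-rich brequinar library and 32.3, 32.6 and 38.7 CPM in the muscle-rich libraries without brequinar. Neither gene's exons are shared with another gene.

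The count ratio of Ctps to Ctps2 within a library does not depend on the scaling between libraries. It ran from 1.42 to 1.65 with a median of 1.56 in BRQ+PD-1, and from 1.35 to 2.16 with a median of 1.73 in BRQ+IgG2a. It ran from 1.79 to 2.84 with a median of 2.36 in PD-1, and from 1.66 to 2.77 with a median of 2.21 in IgG2a. All 6 BRQ+PD-1 libraries lay below every library without brequinar, as did 3 of 6 BRQ+IgG2a libraries. Without the muscle-rich libraries the ranges were 1.35 to 1.82 in BRQ+IgG2a, 1.79 to 2.43 in PD-1 and 1.66 to 2.29 in IgG2a. This ratio was chosen after the levels were seen and is given with no test.

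**Figure D2:**
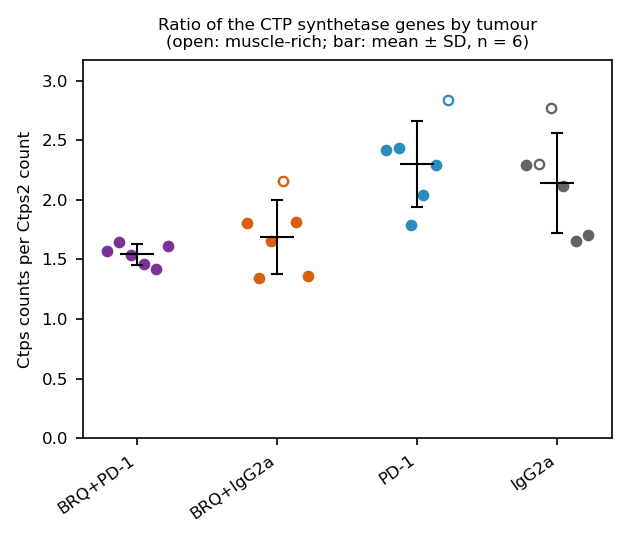
Ctps counts per Ctps2 count (y axis, linear from 0) in each tumour by group, with open points for muscle-rich libraries and bars for the mean ± SD of 6 tumours. The BRQ+PD-1 libraries run from 1.42 to 1.65 and the IgG2a libraries from 1.66 to 2.77.

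Comparisons of single groups gave no call among the 8 enzymes with edgeR. For BRQ+IgG2a against IgG2a, 3.46% of genes were called and 14.8% had an unadjusted p under 0.05. There 1 enzyme had an unadjusted p under 0.05, Nme1 at -0.29 ± 0.14 (SE, adjusted p 0.331), and DESeq2 and limma voom called 0 of 8. For BRQ+PD-1 against IgG2a, 3.91% of genes were called and 23.3% had an unadjusted p under 0.05, as had 3 enzymes. These were Nme1 at -0.46 ± 0.14 (adjusted p 0.0604), Ctps at -0.29 ± 0.11 (adjusted p 0.125) and Nme2 at 0.59 ± 0.28 (adjusted p 0.207), and DESeq2 and limma voom each called Nme1. For BRQ+PD-1 against PD-1, 5.04% of genes were called and 21.4% had an unadjusted p under 0.05, as had 4 enzymes. Nme1 had -0.45 ± 0.14 (adjusted p 0.0620), Ctps -0.31 ± 0.11 (adjusted p 0.104), Ctps2 0.25 ± 0.10 (adjusted p 0.148) and Cad -0.25 ± 0.11 (adjusted p 0.184). DESeq2 called Nme1 there, and limma voom called Cad, Ctps and Nme1. Over all 16029 genes, DESeq2 called 888, 1564 and 1406 and limma voom 2113, 1455 and 2194 in these comparisons in turn. These comparisons share groups, so their values are not independent.

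No enzyme was called for anti-PD1 with edgeR, alone or on top of brequinar. For PD-1 against IgG2a, where 0.0187% of genes were called, no enzyme had an unadjusted p under 0.05 and none was called by DESeq2 or limma voom. The log2 fold changes ran from -0.09 to 0.44, and the upper end was the low-count Nme2. BRQ+PD-1 against BRQ+IgG2a called 0 of 16029 genes, 0%, with 1168 at an unadjusted p under 0.05, while DESeq2 called 4 genes and limma voom 620. None of the 8 was among them, and none had an unadjusted p under 0.05. The interaction, which asks whether the brequinar effect differed with anti-PD1, called 0 genes, 0%, with 1222 at an unadjusted p under 0.05, while DESeq2 called 13 and limma voom 272. Again none of the 8 was called by any of the 3 tools, and the interaction of Nme1 was -0.16 ± 0.20 (SE; adjusted p 0.895).

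**Figure D3:**
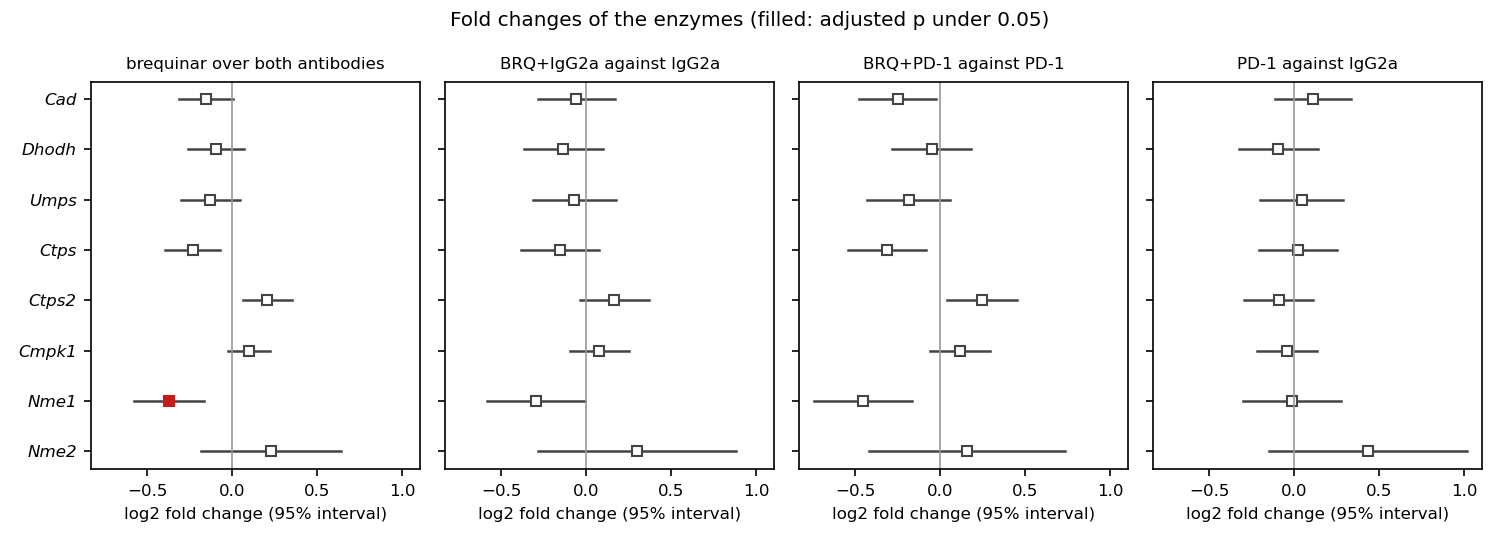
Log2 fold changes (x axis) of the 8 enzyme genes (y axis) with 95% intervals in 4 comparisons, from the edgeR fit over 24 libraries. The filled point is the call at an adjusted p under 0.05, Nme1 for brequinar over both antibodies at -0.37.

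No pair of the 8 genes was called as correlated across tumours. Pearson and Spearman correlations of log2 CPM with group means removed were computed for 28 pairs over the 20 libraries that are not muscle-rich. None of the 28 passed a two-sided permutation test of 100000 shuffles within groups after Benjamini-Hochberg adjustment over the pairs. The strongest was Dhodh with Ctps2, at r = -0.66 (permutation p 0.0195, adjusted p 0.300) and rho = -0.43 (permutation p 0.0753, adjusted p 0.644), and r was -0.33 without the 2 tumours farthest from the median of Dhodh. BRQ+PD-1 replicate 1 stood apart in several of the genes, with the lowest Cad and Dhodh and the highest Ctps2 and Cmpk1 of all 24 tumours.

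**Figure D4:**
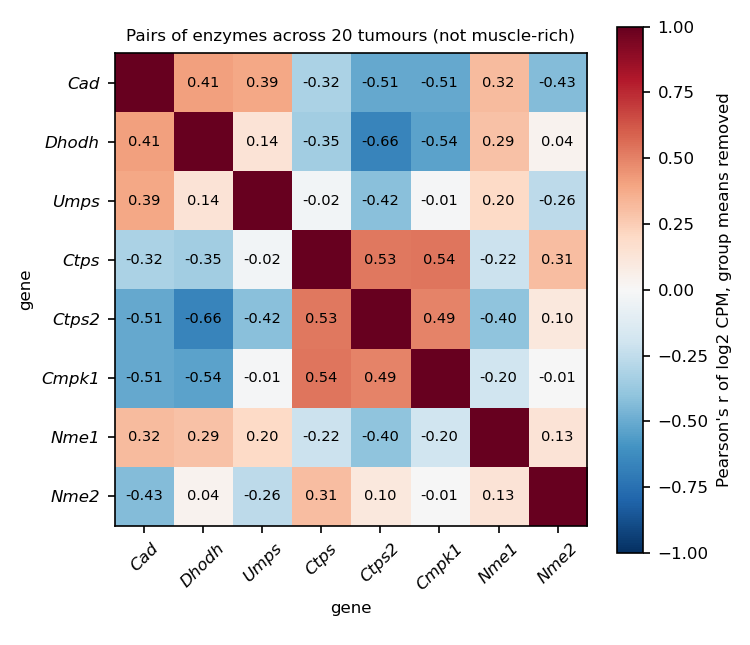
Pearson's r between the 8 enzyme genes (both axes) over 20 tumours that are not muscle-rich, on log2 CPM with group means removed. Colour runs from -1 to 1, and the strongest pair is Dhodh with Ctps2 at -0.66.

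The genes most like each enzyme across those 20 tumours were ranked by the same r, as a description with no test. Cad was nearest to Vars (r = 0.85), Pom121 (0.84) and Kdm2b (0.82). Dhodh was nearest to Aars2 (0.90), Mzt2 (0.87) and Vars2 (0.87), of which Aars2 and Vars2 encode mitochondrial tRNA synthetases. Umps was nearest to Igfbp5 (0.88), Sfrp4 (0.88) and Tfdp1 (0.86), and Ctps to Rad23b (0.93), Ddx21 (0.91) and Mphosph10 (0.89). Ctps2 was nearest to Lipa (0.85), Dynlt3 (0.84) and Mzt1 (0.84), Cmpk1 to Xlr (0.90), Stambp (0.89) and Cul3 (0.87), Nme1 to Psmg1 (0.82), Ruvbl1 (0.82) and Ube2s (0.81), and Nme2 to Rpl35a (0.86), Uqcc1 (0.85) and Psmd4 (0.84). Over all 24 tumours these values ran from 0.40 to 0.88, and the ones for Cmpk1 dropped most, to 0.40 with Xlr and 0.62 with Stambp.

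The genes around the pathway were taken from lists of related genes, first in the same comparison, brequinar over both antibodies. In it 12.5% of the 16029 genes tested were called, 1108 higher and 893 lower, and 27.7% had an unadjusted p under 0.05. Without the muscle-rich libraries 1642 of 16179 genes were called. The list counts below stand beside these shares, and no list was tested as a set. Of 4 other measured nucleoside mono- and diphosphate kinases, 1 rose: Cmpk2, a mitochondrial UMP/CMP kinase induced by interferon, averaged 13.5 CPM in BRQ+PD-1 and 22.2 CPM in BRQ+IgG2a, against 10.5 CPM in PD-1 and 8.94 CPM in IgG2a (log2 fold change 0.84 ± 0.21, adjusted p 0.0129). Of 12 genes of glutamine and aspartate supply, which feed Cad and the CTP synthetases, 1 fell, the glutamine transporter Slc1a5 (-0.34 ± 0.08, adjusted p 0.0102), and without the muscle-rich libraries Slc25a12, an aspartate and glutamate carrier of mitochondria, also rose (0.17 ± 0.05, adjusted p 0.0341). Of 4 genes that supply PRPP, a substrate of Umps, 1 fell, Prpsap1 (-0.17 ± 0.05, adjusted p 0.0233). None of the 11 ubiquinone synthesis genes, whose product takes the electrons of Dhodh, was called, and 2 had an unadjusted p under 0.05.

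Of 21 measured genes of pyrimidine salvage, transport and breakdown, 3 rose and 1 fell, where 12.5% of all genes were called. The nucleoside transporter gene Slc29a1 rose by 0.39 ± 0.11 and the mitochondrial kinase Tk2 by 0.22 ± 0.06 on the log2 scale (adjusted p 0.0244 and 0.0229). Dpyd, the first enzyme of uracil breakdown, rose by 1.22 ± 0.34 (adjusted p 0.0216), and the other transporter Slc29a2 fell, at -0.54 ± 0.12 (adjusted p 0.00518). The 4 kept their calls without the muscle-rich libraries. Of 13 genes of thymidylate and deoxynucleotide supply 4 fell, with Shmt2, the mitochondrial serine hydroxymethyltransferase, at -0.52 ± 0.11 (adjusted p 0.00267), Shmt1 at -0.35 ± 0.11 (adjusted p 0.0318), Dctd at -0.38 ± 0.13 (adjusted p 0.0488) and Dtymk at -0.30 ± 0.09 (adjusted p 0.0333). An unadjusted p under 0.05 was found for 8 of the 21 genes and for 11 of the 13, against 27.7% of all genes. Without the muscle-rich libraries 1 of the 13 fell, Shmt2, and 1 rose, Samhd1.

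Downstream of CTP, 1 of 10 genes of phospholipid and sialic acid synthesis fell, Cmas, which activates sialic acid with CTP (-0.34 ± 0.08, adjusted p 0.0106), and none of 7 UTP-using genes of nucleotide sugar synthesis was called, with 1 at an unadjusted p under 0.05. Of 14 regulators of Cad and its transcription, 1 fell, Myc, a transcription factor that binds E-boxes, which averaged 49.7 ± 7.60 CPM in BRQ+PD-1 and 60.7 ± 9.47 CPM in BRQ+IgG2a, against 86.0 ± 7.90 CPM in PD-1 and 75.9 ± 15.5 CPM in IgG2a (SD, n = 6 each). The log2 fold change of Myc was -0.56 ± 0.09 (adjusted p 0.000386), and -0.58 ± 0.10 without the muscle-rich libraries (adjusted p 0.0013). Of 18 S phase genes 2 fell, Mcm2 and Cdt1, and of 18 mitosis genes none was called, with 2 at an unadjusted p under 0.05. The share called over all genes was 12.5%. Of the other cell types, Mitf rose among 3 measured pigment cell markers (0.66 ± 0.20, adjusted p 0.0307), and no fibroblast, endothelial or keratinocyte marker was called, with 2 of 8 at an unadjusted p under 0.05. Without the muscle-rich libraries Mitf was not called (0.65 ± 0.24, adjusted p 0.0919), nor was Cdt1 (-0.21 ± 0.07, adjusted p 0.0657), while the endothelial marker Pecam1 was called (0.45 ± 0.12, adjusted p 0.0248).

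In the comparisons of single groups fewer of these genes were called. Over all genes the shares called were 3.46% for BRQ+IgG2a against IgG2a, 3.91% for BRQ+PD-1 against IgG2a and 5.04% for BRQ+PD-1 against PD-1. BRQ+IgG2a against IgG2a had Cmpk2 higher (1.31 ± 0.31, adjusted p 0.0162) and Samhd1, which degrades deoxynucleotides, higher (0.84 ± 0.22, adjusted p 0.0344), beside the T cell markers Cd3e, Cd3g, Cd4 and Cd8a and the macrophage marker Adgre1. BRQ+PD-1 against IgG2a had Myc (-0.61 ± 0.13, adjusted p 0.00806), Slc29a2 (-0.65 ± 0.17, adjusted p 0.0336) and Shmt2 (-0.54 ± 0.15, adjusted p 0.0439) lower and Cd4 higher. BRQ+PD-1 against PD-1 had Myc (-0.79 ± 0.13), Slc29a2 (-0.76 ± 0.17), Shmt2 (-0.67 ± 0.15), Shmt1 (-0.57 ± 0.15), Mcm2 (-0.57 ± 0.16), Dut (-0.49 ± 0.15) and Slc1a5 (-0.42 ± 0.12) lower and Mitf (0.97 ± 0.28) higher, with adjusted p from 0.00134 to 0.0483. None was called for PD-1 against IgG2a, for BRQ+PD-1 against BRQ+IgG2a or for the interaction.

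**Figure D5:**
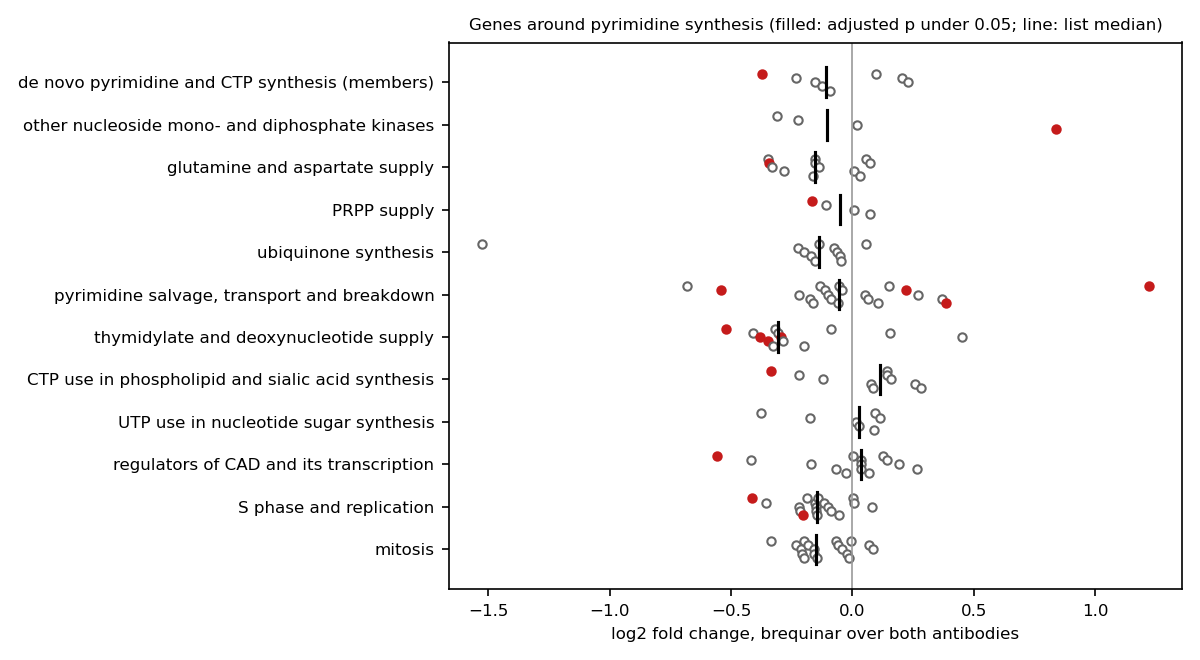
Log2 fold changes for brequinar over both antibodies (x axis) of the genes of each list (y axis), with filled points at an adjusted p under 0.05 and vertical lines at the list median. Myc at -0.56 is the filled point among the regulators, and 4 of 13 genes of thymidylate and deoxynucleotide supply are filled below 0.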

How the data were processed

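Bulk RNA-seq was read from 24 tumours, 1 library each, in 4 groups of 6 taken from the sample titles. The deposited count table gives the authors' whole-number counts per Ensembl gene, not normalized. Alignment tools named in the submitters' processing notes are HISAT2 2.2.1 with StringTie 2.2.1 on build GRCm39; trimming and quality tools named there are Trim Galore 0.6.7, MultiQC 1.11 and FastQC 0.11.8. How reads were counted per gene, and with which strand setting, is not given in the sources used here. None of the 8 genes was found in the FPKM table as read here, which entered no comparison. The genes found in it held only 0.0819% to 0.184% of a library's counts.

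Symbols came from GENCODE M21 (52081 of 55414 genes matched), as did exon positions, on GRCm38. The test was the quasi-likelihood F test of edgeR 4.0.16 in R 4.3.3, with TMM factors, filterByExpr and group means over all 24 libraries; p-values were two-sided and Benjamini-Hochberg adjusted over 16029 genes, and a gene was called under 0.05. SE was computed as the log2 fold change over the root of F. Alternatives used DESeq2 1.42.0 and limma 3.58.1 voom. The test was checked on simulated counts. Named genes were the 8, up to 4 called genes of each list by adjusted p, and the 3 nearest by correlation at a mean of at least 1 CPM. Members and lists were chosen with earlier results of these data known. The titles call the tumours of a group biological replicates, and p-values measure the spread between them. Library totals of 19106205 to 34282319 counts give Dhodh 203 to 521 counts per library.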

Additional observations from a re-analysis of the deposited data

Results flagged for a closer look

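In 5 of 32 sets of 6 tumours, 1 for each enzyme and group, an extreme tumour stood farther from its neighbour than Dixon's 95% limit allows; chance flags about 1 in 20 such sets. In BRQ+PD-1, replicate 1 had the highest Ctps2 level at 58.0 CPM, with the next tumour at 47.2 CPM, and the highest Cmpk1 level at 137.5 CPM, with the next at 107 CPM. BRQ+PD-1 replicate 5 had the highest Nme2 level at 3.28 CPM, with the next at 1.73 CPM. In IgG2a, replicate 2, a muscle-rich library, had the lowest Cad level at 78.5 CPM, with the next at 104 CPM, and replicate 1 had the highest Dhodh level at 17.4 CPM, with the next at 13.7 CPM.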

How the results depend on the processing

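Fold changes of the 8 enzymes were recomputed 1303 times under 9 other settings and with each of 24 libraries left out. Of these, 1232 kept their direction and their side of the threshold, 30 passed it newly and 1 no longer passed. The sign changed in 40, none of them called before or after. Nme1 for brequinar over both antibodies stayed called with every library left out (-0.42 to -0.30, adjusted p 0.00535 to 0.0309). It was lost without the muscle-rich libraries, where 0 enzymes and 1642 of 16179 genes were called. In that comparison RLE factors and library totals each called 2 enzymes (Ctps, Nme1), DESeq2 3 (Ctps, Ctps2, Nme1) and limma voom 4 (Cad, Ctps, Ctps2, Nme1). Over all 16029 genes RLE factors called 2005, library totals 1848, DESeq2 2651 and limma voom 3797, against 2001 in the main fit. More enzyme calls with DESeq2 and limma voom thus came with more calls over all genes. With 1 library left out, 1516 to 2525 genes were called. Leaving out 1 library gave 1 to 3 calls: Ctps without IgG2a replicate 6, PD-1 replicate 3, BRQ+IgG2a replicate 4 or 5, or BRQ+PD-1 replicate 1 or 6, and Ctps2 without IgG2a replicate 4 or 5, PD-1 replicate 3, BRQ+IgG2a replicate 4 or BRQ+PD-1 replicate 2.

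For BRQ+PD-1 against IgG2a, DESeq2 and limma voom called 1 enzyme, and leaving out 1 library gave 0 to 1 (Nme1, without IgG2a replicate 6 or BRQ+PD-1 replicate 4). Over all 16029 genes DESeq2 called 1564 there and limma voom 1455. For BRQ+PD-1 against PD-1, library totals called 1 (Ctps), DESeq2 1 and limma voom 3. Over all genes these settings called 757, 1406 and 2194 of 16029. Leaving out 1 library gave 0 to 1: Nme1 without PD-1 replicate 5 or BRQ+PD-1 replicate 4, and Ctps without BRQ+PD-1 replicate 1. Of the 40 values that changed sign, 38 moved by at most 1 SE. Their main values reached 0.16 ± 0.28 (SE) for Nme2 in BRQ+PD-1 against PD-1. In the interaction they reached -0.14 ± 0.40 (SE) for Nme2 and -0.11 ± 0.17 (SE) for Umps. With 1 library left out, values for PD-1 against IgG2a ran from -0.152 to 0.073 for Nme1, -0.00399 to 0.104 for Umps and -0.0288 to 0.0664 for Ctps. Cmpk1 for BRQ+PD-1 against IgG2a ran from -0.034 to 0.114, lowest without BRQ+PD-1 replicate 1. Dhodh for BRQ+PD-1 against PD-1 ran from -0.0983 to 0.0343 and Nme2 from -0.129 to 0.292, lowest without BRQ+PD-1 replicate 5. The ranges for BRQ+PD-1 against BRQ+IgG2a were -0.0562 to 0.080 for Dhodh, -0.105 to 0.0357 for Cmpk1, -0.129 to 0.00759 for Umps and -0.0854 to 0.0284 for Ctps2. For the interaction they were -0.0597 to 0.0777 for Cmpk1 and -0.42 to 0.123 for Nme2. Library totals gave 0.0092 for Nme1 in PD-1 against IgG2a and -0.00127 for Cmpk1 in the interaction, and summed counts gave 0.00142 for Nme1 in PD-1 against IgG2a. Limma voom gave -0.0543 for Umps in PD-1 against IgG2a, 0.0225 for Dhodh in BRQ+PD-1 against BRQ+IgG2a, and -0.00973 for Cmpk1 and 0.073 for Nme2 in the interaction. Without the muscle-rich libraries the values were -0.0308 for Umps in PD-1 against IgG2a, 0.000762 for Cmpk1 in BRQ+PD-1 against BRQ+IgG2a and 0.00705 for Umps in the interaction. The cause was not tested.

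The titles do not say whether the replicate number pairs tumours across groups, and the main fit did not pair them. Same-numbered tumours of different groups correlated at -0.64 to 0.44 over 36 pairs, 15 of them over 0.1. Tumours with different numbers were not compared in this way, so these values cannot decide it. With the replicate block, Nme1 for brequinar over both antibodies was -0.37 ± 0.10 (adjusted p 0.0346), 1 enzyme was called, and over all genes the block called 1412 in place of 2001, 361 in place of 554 for BRQ+IgG2a against IgG2a, 285 in place of 627 for BRQ+PD-1 against IgG2a and 411 in place of 808 for BRQ+PD-1 against PD-1. Depth limits Nme2, which had 20 to 64 counts per library. No pair of enzymes was called in correlations over all 24 tumours or with group means kept. The list counts without muscle-rich libraries were chosen after seeing the data.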
